A study of Saccharomyces cerevisiae with 8 samples.

Results

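The pentose phosphate pathway enzymes of Saccharomyces cerevisiae were followed as 10 genes, chosen by symbol in the array's probe annotation: ZWF1, SOL3, SOL4 and GND1 of the oxidative branch, and RKI1, RPE1, TKL1, TKL2, TAL1 and NQM1 of the non-oxidative branch. All 10 of 10 were found, each with 1 probe set, among 5449 genes tested. The cells were strain BY4741, a haploid MATa laboratory strain that carries deletions of HIS3, LEU2, MET17 and URA3, grown to saturation in rich glucose medium (2% dextrose) at 30 °C. Controls were taken at time zero with the solvent alone, 2% isopropanol (2 RNA samples). Treated cultures received 0.05 mM TFM in that solvent for 1 h (2 RNA samples), 2 h (2 RNA samples) or 4 h (1 RNA sample, hybridised to 2 technical arrays). The labels do not spell TFM out; the name is in common use for a nitrophenol that kills lampreys and uncouples mitochondrial respiration from ATP synthesis. The samples analysed here hold no solvent control at 1, 2 or 4 h, so time and TFM cannot be told apart in any comparison with the controls.

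The pathway starts from glucose 6-phosphate. Its oxidative branch makes NADPH, which drives biosynthesis and the repair of oxidative damage, and ends in ribulose 5-phosphate. The non-oxidative branch turns pentose phosphates into one another and back into glycolytic sugars, and so can run in either direction. In yeast several steps have a pair of paralogs, of which SOL4, TKL2 and NQM1 (with GND2) are known for being raised in cells that have used up their glucose or are under stress.

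Values are log2 expression from RMA, with array medians between 11.03 and 11.11, and a difference of 1 is a 2-fold change. Changes are given as TFM minus control, with limma's standard error (SE) and a 95% confidence interval where stated. A gene was called when its adjusted p (limma, Benjamini-Hochberg over all 5449 genes) was under 0.05. Since the 2 arrays at 4 h share 1 RNA sample, the spread for that time was borrowed from the groups with 2 samples. As a check of the strain, URA3, LEU2 and MET17 read between 3.51 and 6.17 on every array. The MATa genes STE2, MFA1 and MFA2 read 11.86 or more. The MATalpha genes read above the deleted genes on most arrays: STE3 between 8.85 and 10.01, MF(ALPHA)2 between 7.30 and 7.94, and MF(ALPHA)1 between 7.45 and 8.35 up to 2 h, then 5.34 and 5.68 on the 4 h arrays. All 3 lay below 10.02, the 25th percentile of all probe sets. MF(ALPHA)1 was called lower at 4 h against control (-2.10, adjusted p = 0.0199 in limma), a call lost in the fit of those groups alone and without either control or either 2 h sample (adjusted p up to 0.0682). STE3 was called lower at 2 h against 1 h (-0.96, adjusted p = 0.0337), a call lost after quantile normalization and without either 2 h sample (adjusted p up to 0.255). The 17 control probe sets for ribosomal RNA had a median of 9.76 and 9.97 in controls, 10.47 and 11.77 after 1 h, 11.43 and 13.03 after 2 h and 12.18 and 12.08 on the arrays of 4 h. The 3' end of control transcripts read higher than the 5' end by a mean of 1.55 in control replicate 1, and this difference lay between 1.25 and 1.36 on the other 7 arrays. The 5th percentile of all probe sets was 8.39 and 8.40 on the arrays of 1 h and between 7.91 and 8.20 on the others. The part of these measures in the results, among them the calls of dim genes against 1 h (STE3, SSP1), was not tested.

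RKI1 fell to 0.299 of its control level after 4 h of TFM, while none of the other 9 genes was called at any time point. RKI1 encodes ribose 5-phosphate ketol-isomerase, which converts ribulose 5-phosphate to ribose 5-phosphate, the sugar of nucleotides. In bulk samples such as these, fewer cells with a transcript and less of it per cell cannot be told apart. Expression of RKI1 was 12.24 and 12.29 in the controls, 11.98 and 12.03 after 1 h, 11.78 and 11.78 after 2 h and 10.51 and 10.53 on the arrays of 4 h. Both samples at 1 h lay below both controls, both at 2 h lay below both at 1 h, and the single 4 h sample lay below all of them on each of its arrays. The change at 4 h against control was -1.74 (SE 0.09, 95% interval -1.96 to -1.53, adjusted p = 0.00169 in limma), the 5th lowest of the 5449 genes. At 4 h 4.46% of all genes were called and 3.73% were called lower.

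At the earlier times RKI1 stood lower but missed the threshold. Its change was -0.26 at 1 h against control (SE 0.07, adjusted p = 0.0825 in limma) and -0.49 at 2 h (SE 0.07, adjusted p = 0.0934). Of all genes 4.99% were called at 1 h and 0.11% at 2 h. In the comparisons between times, RKI1 fell by 1.26 at 4 h against 2 h (SE 0.09, adjusted p = 0.00801) and changed by -1.48 at 4 h against 1 h (SE 0.09, adjusted p = 0.00321). These comparisons called 0.863% and 11.7% of all genes. The change at 2 h against 1 h, -0.22, missed the threshold (adjusted p = 0.147), where 2.64% of genes were called. An F test across 1, 2 and 4 h called RKI1 (adjusted p = 0.00679), which had the 3rd highest F of all genes, and 0 of the other 9 members, against 6.51% of all genes. Without either 2 h sample this test called 0 members and 1 gene in all.

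The fall of RKI1 at 4 h rests on 1 RNA sample. Its size lay between -1.77 and -1.71 under all 14 alternatives, which include leaving out each control. The call at 4 h against control was lost in a fit of the 4 h and control samples alone. The call at 4 h against 2 h was lost without TFM 2 h replicate 1 or replicate 2. Hardly any gene was called in those fits, and the change at 4 h against 2 h stayed between -1.26 and -1.25.

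**Figure D1:**
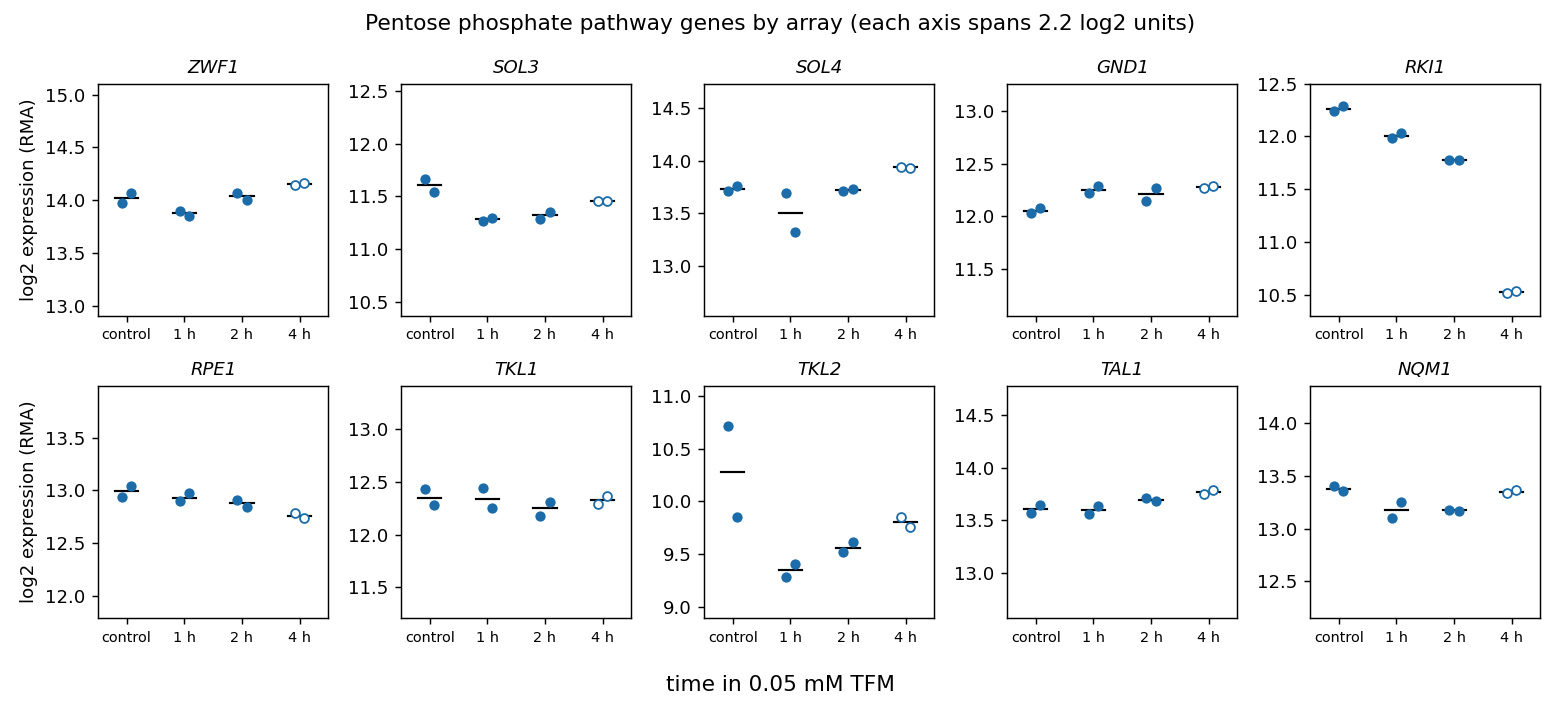
Log2 expression (RMA) of the 10 pathway genes by array, against time in TFM with controls at the left; filled points are arrays of separate RNA samples, open points are the 2 technical arrays at 4 h, bars are group means, and every axis spans the same number of log2 units. RKI1 stands at 10.51 and 10.53 on the 4 h arrays against 12.24 and 12.29 in controls, while TKL2 has its widest spread between the 2 controls.

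In the oxidative branch 0 of 4 genes were called at 1, 2 or 4 h, where 4.99%, 0.11% and 4.46% of all genes were called. ZWF1, glucose 6-phosphate dehydrogenase and the entry enzyme that makes the first NADPH, was 13.97 and 14.07 in controls, 13.90 and 13.85 after 1 h, 14.07 and 14.00 after 2 h and 14.14 and 14.16 on the arrays of 4 h. Its 1 h samples were below both controls and its 4 h arrays above them, and the full range over the 7 RNA samples was 0.30. The change of ZWF1 was -0.14 at 1 h, 0.02 at 2 h and 0.13 at 4 h, and the 95% interval at 4 h ran from -0.11 to 0.36. At 4 h against 1 h ZWF1 stood 0.27 higher (SE 0.10, adjusted p = 0.113 in limma).

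SOL3 and SOL4 encode 6-phosphogluconolactonases, which open the lactone made by Zwf1. SOL3 was 11.67 and 11.54 in controls, 11.27 and 11.30 after 1 h, 11.29 and 11.35 after 2 h and 11.46 on both arrays of 4 h. All its TFM samples lay below both controls. Its change was -0.32 at 1 h (SE 0.08, adjusted p = 0.0672), -0.28 at 2 h (adjusted p = 0.249) and -0.14 at 4 h (adjusted p = 0.459). SOL4 was 13.71 and 13.76 in controls, 13.69 and 13.32 after 1 h, 13.71 and 13.73 after 2 h and 13.94 and 13.93 on the arrays of 4 h. The 2 samples at 1 h differed by more than any other pair of this gene. Without TFM 1 h replicate 1 the change of SOL4 at 1 h was -0.41, and without TFM 1 h replicate 2 it was -0.04. With both it was -0.23 (adjusted p = 0.289 in limma). Over all its alternatives at 1 h SOL4 was called under 1 setting, without TFM 1 h replicate 1. That fit has 1 sample at 1 h, and far more genes were called in it over all genes than in the main fit.

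GND1, the main 6-phosphogluconate dehydrogenase and the source of the second NADPH, was 12.03 and 12.08 in controls, 12.22 and 12.29 after 1 h, 12.15 and 12.27 after 2 h and 12.27 and 12.29 on the arrays of 4 h. It was the member that stood above both controls in every TFM sample. The change was 0.20 at 1 h (SE 0.08, adjusted p = 0.176 in limma), 0.16 at 2 h (SE 0.08, adjusted p = 0.516) and 0.22 at 4 h (SE 0.10, adjusted p = 0.273). None of these was called. The upper end of the 95% interval at 4 h was 0.46, and the lower end was -0.02.

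In the rest of the non-oxidative branch 0 of 5 genes were called at 1, 2 or 4 h, against 4.99%, 0.11% and 4.46% of all genes. RPE1, the epimerase that takes ribulose 5-phosphate to xylulose 5-phosphate and so uses the same substrate as Rki1, was 12.94 and 13.04 in controls, 12.90 and 12.97 after 1 h, 12.91 and 12.84 after 2 h and 12.78 and 12.74 on the arrays of 4 h. Its levels overlapped the controls at 1 h and lay below them at 2 h and 4 h. The change of RPE1 at 4 h was -0.23 (SE 0.10, 95% interval -0.47 to 0.00, adjusted p = 0.259 in limma). That interval and the interval of RKI1, -1.96 to -1.53, have no value in common; the difference between the genes was not itself tested.

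TKL1, the main transketolase, which moves carbon units between sugar phosphates, was 12.43 and 12.28 in controls, 12.44 and 12.25 after 1 h, 12.18 and 12.31 after 2 h and 12.29 and 12.37 on the arrays of 4 h. The groups overlapped in each comparison with control, and TKL1 had the lowest F of the 10 members, 0.427. Its change was -0.01 at 1 h, -0.11 at 2 h and -0.02 at 4 h, and the 95% interval at 4 h ran from -0.33 to 0.28.

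TKL2, the second transketolase, was 10.71 and 9.85 in controls, 9.28 and 9.41 after 1 h, 9.52 and 9.61 after 2 h and 9.85 and 9.76 on the arrays of 4 h. It had the widest spread of the members between controls (SD 0.61, n = 2), and these 2 samples lay farther apart than any other pair of a group. Its mean over the 7 RNA samples, 9.74, lay below the 25th percentile of all probe sets, 10.02, while its control mean was 10.28. That percentile is a rank and no detection limit, so whether TKL2 is expressed was not tested. TKL2 was the only one of the 10 members with a mean below that level. The change was -0.94 at 1 h (SE 0.25, 95% interval -1.55 to -0.32, adjusted p = 0.0794 in limma), -0.72 at 2 h (adjusted p = 0.342) and -0.48 at 4 h (adjusted p = 0.436). Without control replicate 1 these were -0.51, -0.29 and -0.05, and without control replicate 2 they were -1.37, -1.15 and -0.91. TKL2 was called in the fits without control replicate 2, which leave 1 control sample. The TKL2 change thus depended on which control was used, and control replicate 1 also had the highest 3' minus 5' difference, 1.55.

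TAL1, transaldolase, was 13.57 and 13.65 in controls, 13.56 and 13.64 after 1 h, 13.71 and 13.68 after 2 h and 13.75 and 13.79 on the arrays of 4 h. The samples at 1 h overlapped the controls, and those at 2 h and 4 h lay above them. The change of TAL1 at 4 h was 0.16 (SE 0.09, 95% interval -0.07 to 0.39, adjusted p = 0.391 in limma). NQM1, a second transaldolase, was 13.41 and 13.36 in controls, 13.10 and 13.25 after 1 h, 13.18 and 13.17 after 2 h and 13.34 and 13.37 on the arrays of 4 h. NQM1 stood below both controls at 1 h and 2 h, with changes of -0.21 each (SE 0.08, adjusted p = 0.167 and 0.384 in limma), and a change of -0.03 at 4 h (adjusted p = 0.906).

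**Figure D2:**
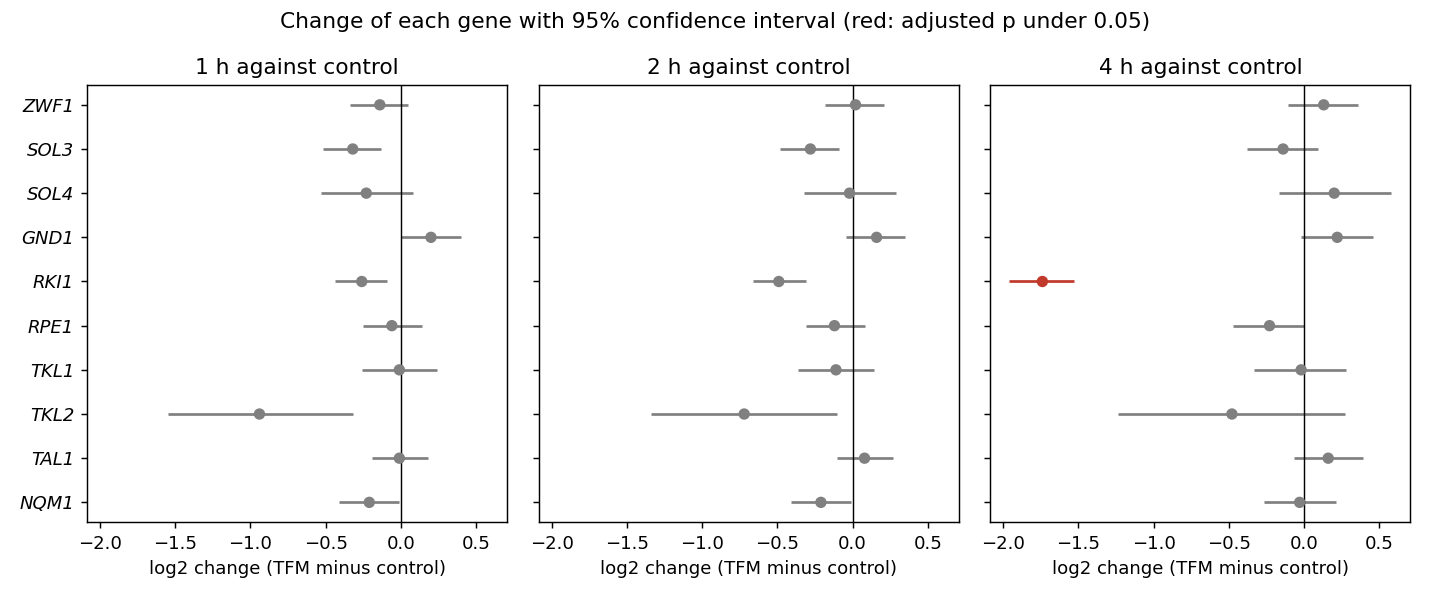
Log2 change (TFM minus control) of each pathway gene at 1, 2 and 4 h, with bars for limma's 95% confidence interval; red marks adjusted p under 0.05. RKI1 at 4 h, at -1.74, is the one red point, and TKL2 has the widest intervals.

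Over the 10 genes the number called was 0 at 1 h, 0 at 2 h and 1 at 4 h. Over all genes 4.99% were called at 1 h, 0.11% at 2 h and 4.46% at 4 h. With no adjustment for the number of genes, p was under 0.05 for 5 members at 1 h (27.5% of all genes), 4 at 2 h (12.3%) and 1 at 4 h (19.8%). SOL3, RKI1, TKL2 and NQM1 made up the 4 at 2 h, and GND1 joined them at 1 h. The 3 comparisons share the control samples, so the recurrence of a gene among them is not independent.

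The median change of the 10 members was -0.18 at 1 h, -0.11 at 2 h and -0.03 at 4 h, beside -0.03, -0.02 and 0.00 over all genes. Above the control mean stood 1 member at 1 h (GND1), 3 at 2 h and 4 at 4 h, beside 44.1%, 43.8% and 49.4% of all genes. Of the 9 members below it at 1 h, TKL1 and TAL1 (-0.01 each) and RPE1 (-0.06) lay close to it. The 4 oxidative genes had a median of -0.19 at 1 h, 0.00 at 2 h and 0.17 at 4 h. The 6 non-oxidative genes had one of -0.13, -0.16 and -0.13. The order of the branches thus differed between 1 h and 4 h, and the difference between them was not tested. Samples did not overlap and were lower for 6 members at 1 h (32.2% of all genes), 5 at 2 h (31.5%) and 5 at 4 h (40.3%). They did not overlap and were higher for 1, 2 and 4 members, against 23.5%, 21.1% and 38.4% of all genes. At 4 h these counts use the mean of the 2 arrays as 1 sample. Of the genes counted lower there, NQM1 (13.37) and TKL2 (9.85) reached or passed a control (13.36 and 9.85) on 1 of the arrays.

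**Figure D3:**
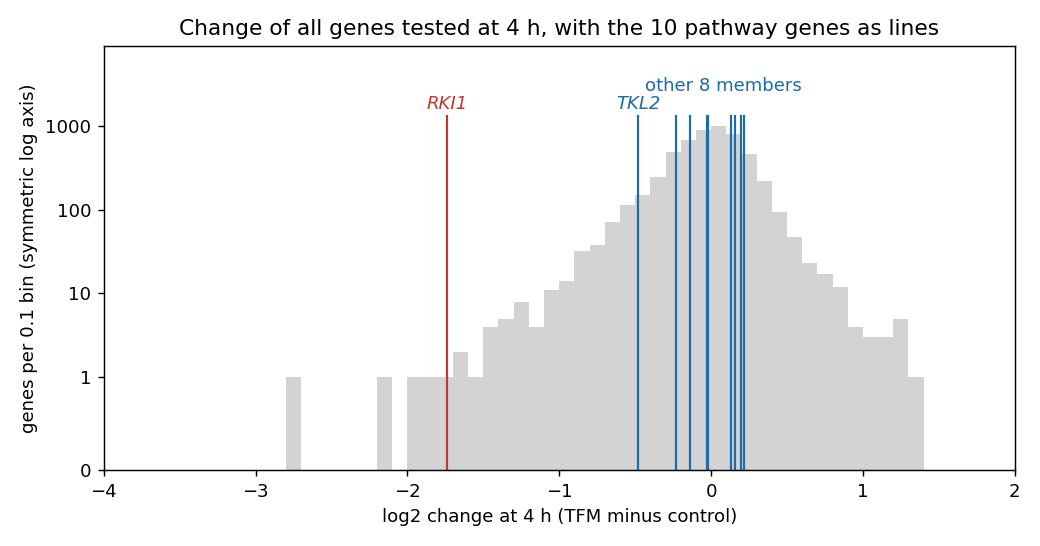
Number of genes per bin of log2 change at 4 h (TFM minus control, symmetric log axis) over all 5449 genes tested in grey, with the 10 pathway genes as vertical lines. RKI1 (red) lies in the lower tail at -1.74, TKL2 at -0.48, and the other 8 between -0.23 and 0.22.

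The paralogs of several steps were set side by side, without a test of the difference between them. GND2, the second 6-phosphogluconate dehydrogenase, was 11.92 and 12.01 in controls, 11.85 and 11.31 after 1 h, 11.89 on both arrays of 2 h and 12.05 and 12.15 on those of 4 h. Its change was -0.38 at 1 h (adjusted p = 0.206 in limma) and 0.14 at 4 h (adjusted p = 0.76), beside 0.20 and 0.22 for GND1. GND2 was low in the same sample as SOL4, TFM 1 h replicate 2, and so was SOL1, a related gene not shown to act in the pathway, with 11.42 and 11.08 at 1 h. Genes outside the pathway were also low in that sample: of all 5449 genes, 6.64% were lower in TFM 1 h replicate 2 than in replicate 1 by at least as much as SOL4 (-0.37), 2.02% by as much as GND2 (-0.54) and 9.03% by as much as SOL1 (-0.33). The ribosomal RNA control median of that sample was 11.77, against 10.47 in replicate 1, and its part in these values was not tested. SOL1 and SOL2 changed by -0.29 and -0.03 at 1 h and by 0.13 and 0.10 at 4 h, and none of these 3 outside paralogs was called in any comparison. Whether the array's probes tell each pair of paralogs apart was not tested.

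**Figure D4:**
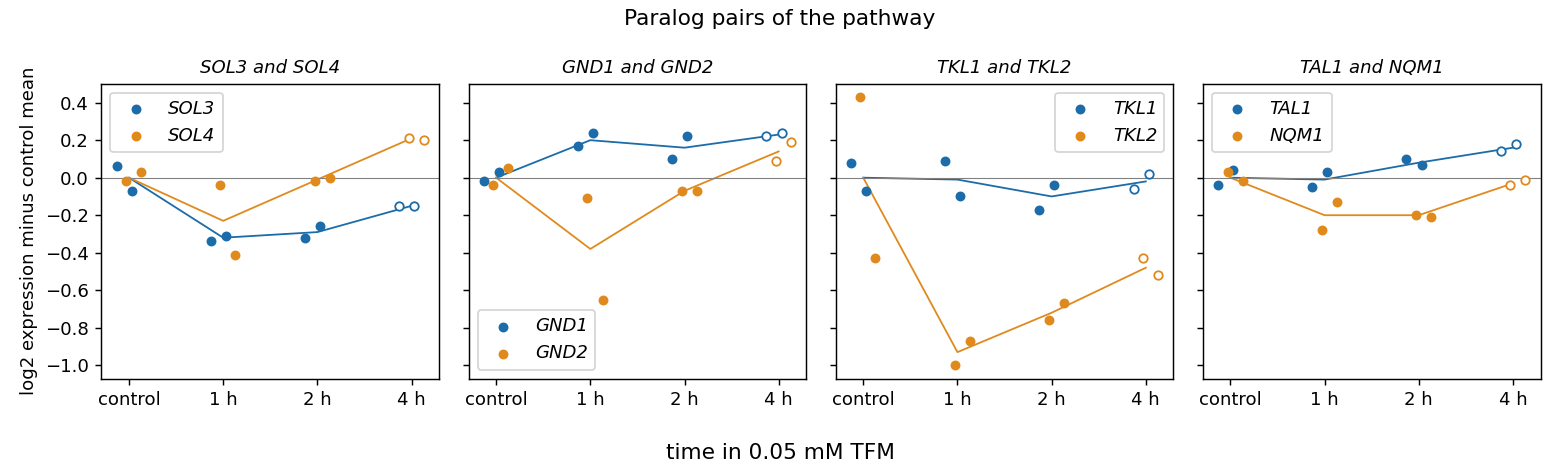
Log2 expression minus the control mean for 4 paralog pairs against time in TFM; points are arrays (open for the technical arrays at 4 h) and lines join group means. GND2 and SOL4 each have 1 low sample at 1 h, and the TKL2 controls lie far apart.

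Genes next to the pathway in metabolism were counted from lists fixed with earlier results of these data known. The counts stand beside 4.99% of all genes called at 1 h, 0.11% at 2 h and 4.46% at 4 h. Of 14 genes for side entries and exits (PRS1 to PRS5 for phosphoribosyl pyrophosphate, SHB17, XKS1, PGM2 and others), 0 were called at 1, 2 or 4 h, with a median of 0.02 at 4 h and a range from -0.52 to 0.28. Of 6 genes at the glucose 6-phosphate branch point (HXK1, HXK2, GLK1, PGI1, PFK1, PFK2), 0 were called, and their changes at 4 h lay between -0.17 and 0.20. SHB17, sedoheptulose bisphosphatase, which feeds the non-oxidative branch from glycolysis, stood at -0.25 at 4 h (adjusted p = 0.217 in limma).

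Of 8 genes for other sources of NADPH, 1 was called at 4 h, and 0 at 1 or 2 h. IDP2, cytosolic NADP-dependent isocitrate dehydrogenase, was 13.79 and 13.83 in controls, 13.89 and 13.92 after 1 h, 13.89 and 13.78 after 2 h and 12.90 and 12.94 on the arrays of 4 h. IDP2 thus stayed near or above its controls up to 2 h and was low at 4 h. It fell by 0.89 at 4 h against control (SE 0.09, adjusted p = 0.0129 in limma). The call was lost under 4 of 14 alternatives, in which its change stayed between -0.91 and -0.86, with adjusted p up to 0.0822: the fit of 4 h and control alone, and the fits without control replicate 1, TFM 2 h replicate 1 or TFM 2 h replicate 2. Between times, IDP2 was called lower at 4 h against 2 h (-0.91, adjusted p = 0.0186) and against 1 h (-0.98, adjusted p = 0.00655 in limma). The first of these calls was lost under 4 of 14 alternatives and the second under 0. ALD6, cytosolic aldehyde dehydrogenase and another NADPH source, stood at -0.19 at 4 h (adjusted p = 0.384), and MAE1 stood highest, at 0.49 (adjusted p = 0.4). The 8 genes had a median of 0.08 at 4 h, with changes in both directions.

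Of 8 NADPH-using enzymes, GDH1, which fixes ammonium into glutamate, was called at 4 h and 0 were called at 1 or 2 h. GDH1 fell by 0.56 (SE 0.11, adjusted p = 0.0494 in limma). Of 8 genes that use erythrose 4-phosphate or ribose 5-phosphate, ARO4, a first enzyme of aromatic amino acid synthesis, was called at 4 h and again 0 at 1 or 2 h. ARO4 fell by 0.60 (SE 0.12, adjusted p = 0.0481). Both calls were lost under 8 of 14 alternatives, among them both scalings, the fit of 4 h and control alone, 4 h array 1 alone, and the fits without either control or either 2 h sample, with adjusted p up to 0.141 for GDH1 and 0.137 for ARO4. At 4 h against 1 h, where 11.7% of all genes were called, GDH1 and ARO4 were also called lower (-0.64 and -0.75, adjusted p = 0.0247 and 0.0183 in limma). Each of these calls was lost under 3 of 14 alternatives: without either 2 h sample and in the fit of those 2 groups alone. ERG1, squalene epoxidase of sterol synthesis, was called lower in the same comparison (-0.48, adjusted p = 0.0424). That call was lost under 6 of 14 alternatives: without either control or either 2 h sample, with 4 h array 1 alone, and in the fit of those 2 groups alone.

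Of 7 regulators (STB5, YAP1, GCR1, GCR2, MSN2, MSN4, GIS1), MSN4 rose at 4 h. MSN4, a general stress activator, was 10.82 and 10.86 in controls, 10.85 and 10.77 after 1 h, 11.15 and 11.21 after 2 h and 11.62 and 11.52 on the arrays of 4 h. Both 2 h samples and both 4 h arrays lay above the controls. The change of MSN4 was 0.73 at 4 h (SE 0.09, adjusted p = 0.0178 in limma). The call was lost in the fit of 4 h and control alone and without either control or either 2 h sample, with adjusted p up to 0.0963. At 4 h against 1 h MSN4 changed by 0.76 (adjusted p = 0.0118 in limma), where 11.7% of all genes were called. That change lay between 0.71 and 0.82 under all 14 alternatives. MSN2, also in this list, stood below its controls, at -0.42 after 1 h, -0.45 after 2 h and -0.26 after 4 h. None of these was called (adjusted p = 0.0834, 0.212 and 0.357). STB5, which activates pathway genes under oxidative stress, read between 9.34 and 9.68 on all arrays, below the 25th percentile of all probe sets.

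The 5 genes with the profile most like RKI1, by Pearson correlation over the 7 RNA samples among 4119 genes above that percentile, were ADH2 (r = 0.9986), SFC1 (0.9936), TRX1 (0.992), NHP6A (0.9881) and THI13 (0.9877). The points share arrays and time points, so these are descriptions. Without the 4 h sample the correlations were 0.99, 0.96, 0.97, 0.92 and 0.95. ADH2, the alcohol dehydrogenase that oxidises ethanol, was 14.31 and 14.28 in controls, 13.76 and 13.94 after 1 h, 13.57 and 13.56 after 2 h and 11.58 and 11.45 on the arrays of 4 h. SFC1, a mitochondrial succinate-fumarate carrier, was 13.50 and 13.56 in controls, 13.37 and 13.48 after 1 h, 13.21 and 13.23 after 2 h and 12.11 and 12.07 on the arrays of 4 h. Both genes, like RKI1, had most of their fall between 2 h and 4 h. At 4 h against control ADH2 changed by -2.78 (SE 0.11), SFC1 by -1.44 (SE 0.10) and TRX1, a cytosolic thioredoxin, by -0.55 (SE 0.09). NHP6A, a chromatin protein, changed by -0.52 (SE 0.09) and THI13, of a family with near-identical copies in thiamine synthesis, by -0.51 (SE 0.09). The 5 genes were picked by their likeness to RKI1 over these same samples, the 4 h sample included. Their falls at 4 h follow in part from that choice, so they are descriptions and no separate result.

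The 5 genes most like ZWF1 were ABD1 (r = 0.9893), FLO9 (0.9893), SRY1 (0.9748), MHF1 (0.9742) and BYE1 (0.9738). Each ranged over 0.38 or less across the 7 samples and none was called at 1, 2 or 4 h against control. ABD1 is the mRNA cap methyltransferase, and FLO9 belongs to a family of flocculins with near-identical copies.

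**Figure D5:**
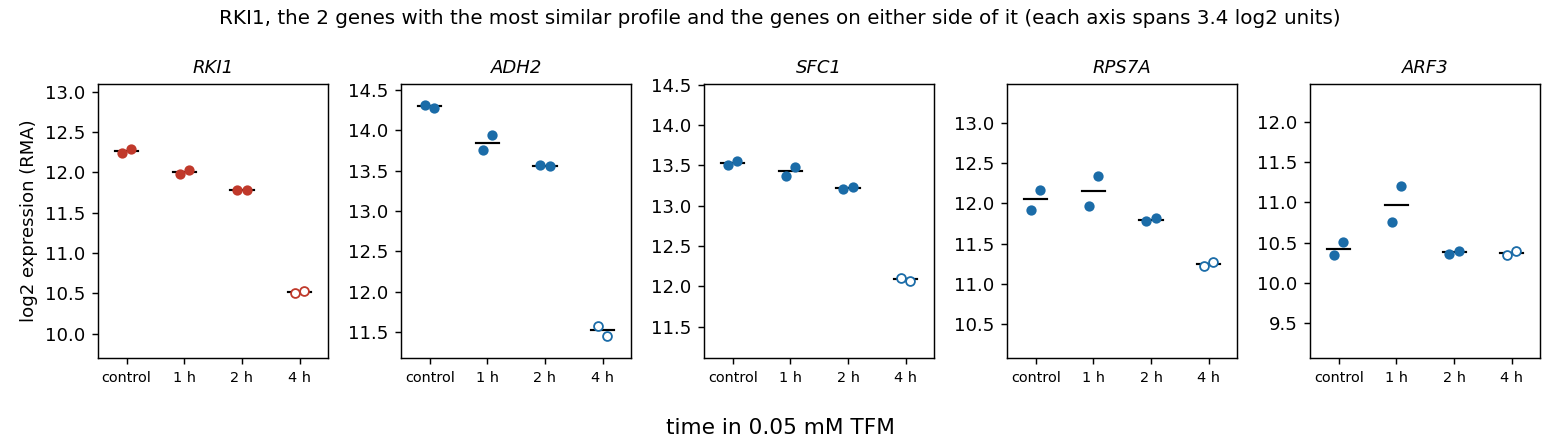
Log2 expression of RKI1 (red), of ADH2 and SFC1, the genes with the most similar profile, and of RPS7A and ARF3, the genes on either side of RKI1, against time in TFM; filled points are RNA samples, open points the technical arrays at 4 h, bars group means, and every axis spans the same number of log2 units. RKI1 reads 10.51 and 10.53, ADH2 11.58 and 11.45, and SFC1 12.11 and 12.07 on the 4 h arrays.

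The nearest protein-coding genes on each side of the members were looked up in the RefSeq annotation of the yeast genome, after the values of RKI1 had been seen. Of 20 such neighbours 18 were measured, and of these 0 were called higher and 1 lower at 4 h, and 0 higher and 1 lower at 1 h. Over all genes 4.46% were called at 4 h and 4.99% at 1 h. RKI1 is divergent from RPS7A, a gene for a small-subunit ribosomal protein, and convergent with ARF3, a small GTPase gene. RPS7A was 11.92 and 12.17 in controls, 11.97 and 12.34 after 1 h, 11.78 and 11.82 after 2 h and 11.23 and 11.27 on the arrays of 4 h. Its change at 4 h was -0.79 (95% interval -1.22 to -0.37, adjusted p = 0.0664 in limma), and ARF3 stood at -0.05 (adjusted p = 0.902). RPS7A was called lower at 4 h against 1 h, by -0.90 (adjusted p = 0.0298), a call lost without either 2 h sample or in the fit of those 2 groups alone (adjusted p up to 0.0756).

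The neighbours called against control stood beside SOL4 and TAL1. CPD1, a cyclic phosphodiesterase gene next to SOL4, was 10.76 and 10.65 at 1 h, against 11.64 and 11.54 in controls. It fell by 0.89 at 1 h against control (adjusted p = 0.0168 in limma), and without control replicate 1 the call was lost (adjusted p = 0.0689). ILV5, an enzyme of branched-chain amino acid synthesis next to TAL1, fell by 0.68 at 4 h (adjusted p = 0.0391). That call was lost without either control or either 2 h sample and in the fit of 4 h and control alone (adjusted p up to 0.118). Between times, CPD1 was called higher at 2 h and 4 h against 1 h (0.51 and 0.62, adjusted p = 0.0362 and 0.0199). Both of these calls were lost without either 2 h sample, the first also without TFM 1 h replicate 2 and the second also in the fit of those groups alone. SSP1, a dim gene of spore formation next to GND1, was called lower at 4 h against 1 h (-1.23, adjusted p = 0.0485), a call lost under 7 of 13 alternatives, among them both scalings and the fits without TFM 1 h replicate 2 or either 2 h sample (adjusted p up to 0.107).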

How the data were processed

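Log2 values of 5814 probe sets on 8 one-colour Affymetrix yeast arrays were taken as deposited; the log base was judged from their range. Per the submitters' processing notes, the authors made these log2 values by RMA, which corrects background, brings arrays to a shared distribution and summarises probes; no version is named. Such scaling hides any change in the total amount of mRNA. Per the labels' protocols, the 2 arrays at 4 h came from 1 RNA sample, so they were averaged. Of the probe sets, 5498 had 1 gene, 0 several and 316 none; 12 symbols were updated, and the brightest probe set was kept for 47 genes, which left 5449. The 7 RNA samples entered 1 fit in limma 3.58.1 (lmFit, eBayes; R 4.3.3), with 3 residual and 3.36 prior degrees of freedom. The labels do not say that replicates were separate cultures, so p-values measure the spread between these samples, which may be technical. Arrays carry no depth; their number limits the precision. The script was tested on simulated data.

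Named were all 10 members, paralogs whatever their values, genes of the metabolic and regulator lists called against control (at most 4 per list and direction), and the 5 genes most correlated with ZWF1 and with the member of highest F. Genes called in the strain check, between times or beside a member were named after their values were seen. SHB17, ALD6, MAE1, STB5, MSN2 and ARF3 were called in no comparison and were given values outside the rule, as were the other genes of the strain check. Members, lists and tests were chosen with earlier results of these data known. Alternatives covered scaling, a filter on dim genes, the prior, the samples fitted, the block, each technical array, each replicate and the rule for probe sets. A planned search for promoter motifs was not run, as no sequences were used here.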

Additional observations from a re-analysis of the deposited data

Results flagged for a closer look

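RKI1 differed between time points by limma's test of the difference itself: its change was -1.26 at 4 h against 2 h (adjusted p = 0.00801) and -1.48 at 4 h against 1 h (adjusted p = 0.00321). RKI1 was lower in the 4 h sample than in both samples of either earlier time. The 4 h value is that of 1 RNA sample on 2 arrays.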

How the results depend on the processing

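Of 864 values for single members under an alternative, 852 kept their side of the threshold, 9 gained a call, 3 lost one and 0 turned direction with a call. For the other named genes 114 of 2157 lost a call and 53 gained one. The number of members called became 1 at 2 h with a trended prior or over genes above the 25th percentile (RKI1 in each), 0 at 4 h in the fit of the groups compared alone, and 2 at 4 h against 1 h with a trended prior (ZWF1 and RKI1). Leaving out a replicate leaves 1 sample in its group, and the number of genes called over all genes shifted widely in these fits. TKL2 gained calls without control replicate 2 and SOL4 without TFM 1 h replicate 1. RKI1 lost calls at 4 h against 2 h and in the F test without either 2 h sample. These gains and losses are therefore not read as traits of the members. The change of RKI1 at 4 h against 2 h stayed between -1.26 and -1.25 under all 14 alternatives. The cause was not tested. The samples of the same replicate number deviated together only weakly (correlations 0.10, 0.19 and 0.03), so the numbers were not taken as pairs; with the replicate block, 0 members were called at 1 h, 2 h or 2 h against 1 h, as without it, while over all genes 494, 0 and 301 were called, against 272, 6 and 144. The block was not run for 4 h, which has 1 RNA sample. The number of samples limits the precision, and TKL2 lies below the 25th percentile of signal.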
